A study of Mus musculus with 12 samples.

Results

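The 10 genes described here carry out salt, magnesium and potassium transport in the distal convoluted tubule of the kidney and its control by WNK kinases. They are the transport genes Slc12a3 and Trpm6, the kinase genes Wnk1, Wnk4, Stk39 and Oxsr1, the ubiquitin ligase genes Klhl3 and Cul3, and the potassium channel genes Kcnj10 and Kcnj16. They were listed by symbol and found through their Ensembl identifiers among the 57180 genes of the count files, and all 10 were among the 17163 genes with enough counts to be tested. Poly(A) RNA was sequenced from scrapes of kidney from 12 male C57BL/6J mice, which entered the study from 60 days of age, with 4 mice in each group and 1 library per mouse. Control mice received the vehicle, saline with 2% Tween 80. The 10CBD and 20CBD mice received cannabidiol (CBD), a non-intoxicating compound of the cannabis plant, at 10 and 20 mg per kg of body weight. Both treated groups were injected into the abdominal cavity once a day for 28 days, and 28 days are also listed for the Control mice.

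In the distal convoluted tubule, the cotransporter encoded by Slc12a3 (NCC, the target of thiazide diuretics) brings sodium and chloride into the cell from the urine side. WNK kinases activate the kinases SPAK and OSR1, encoded by Stk39 and Oxsr1, which phosphorylate the cotransporter and raise its activity. The adaptor protein of Klhl3 and the scaffold protein of Cul3 form a ubiquitin ligase that marks WNK kinases for degradation, and mutations of WNK1, WNK4, KLHL3 or CUL3 cause familial hyperkalemic hypertension in people. The potassium channel subunits of Kcnj10 and Kcnj16 set the voltage of the basolateral membrane, through which the WNK kinases sense plasma potassium. Trpm6 encodes the channel by which magnesium enters these cells. Much of this control acts through phosphorylation and protein stability, which RNA counts do not measure.

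The counts on genes were 23532088, 19673695, 21106306 and 17946614 in Control replicates 1 to 4. They were 21977253, 15417867, 20822136 and 16832859 in 10CBD replicates 1 to 4, and 18045399, 18219064, 16306563 and 18168511 in 20CBD replicates 1 to 4. Libraries differed in the share of counts on mitochondrial genes, which was 12.8%, 5.77%, 17.6% and 13.47% in the Control libraries. It was 3.53%, 15.3%, 4.55% and 15.3% in the 10CBD libraries and 20.6%, 23.4%, 5.54% and 13.99% in the 20CBD libraries. Control replicate 2, 10CBD replicates 1 and 3 and 20CBD replicate 3 were thus the 4 libraries under 10%. Fits without them keep only replicates 2 and 4 of 10CBD, so their values for that group rest on few mice. Markers of the distal convoluted tubule were measured in every library, among them Slc12a3 at 448 CPM or more, Emx1 at 25.8 CPM or more, Pvalb at 7.62 CPM or more and Sall3 at 3.89 CPM or more (CPM, the count of a gene scaled to the TMM-normalized size of its library).

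The comparison of 10CBD with Control asked what the lower dose altered, that of 20CBD with Control what the higher dose altered, and that of 20CBD with 10CBD whether the doses differed. The first and second comparisons share the Control mice. At the higher dose the mean of each of the 10 genes was below that of Control, with Slc12a3, Trpm6 and Wnk1 farthest below it, but edgeR called 0 of 10 at an adjusted p under 0.1 (Benjamini-Hochberg over all genes tested). Of the 17163 genes tested, 52 were called there, which is 0.303%. Slc12a3 and Wnk1 were the 2 of 10 members with an unadjusted p under 0.05, against 1450 of all genes (8.45%). DESeq2 called 0 members with 3 at an unadjusted p under 0.05, and limma-voom called 0 with 2. Shares of all genes at this limit are given for edgeR only, here and in the comparisons below, so the counts of the other tools have no such reference.

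At the lower dose, edgeR called 0 of 10 members and 5 of all genes (0.0291%), and 0 members had an unadjusted p under 0.05, against 973 of all genes (5.67%). DESeq2 and limma-voom each called 0 members there, with 0 at an unadjusted p under 0.05. Between the doses, edgeR called 0 of all genes (0%), with 0 of 10 members and 1083 of all genes (6.31%) at an unadjusted p under 0.05. There DESeq2 called 0 members with 1 at an unadjusted p under 0.05, and limma-voom called 0 with 0. For the mean of both doses against Control, edgeR called 24 genes (0.140%) and 0 of 10 members, with Slc12a3 and Wnk1 again the 2 members with an unadjusted p under 0.05, against 1209 of all genes (7.04%). DESeq2 and limma-voom each called 0 members in that comparison, with 2 at an unadjusted p under 0.05.

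The number of all genes that edgeR called at the higher dose depended on single libraries. It was 14 without Control replicate 1, 2 or 4, 32 without Control replicate 3, and 19, 29 and 25 without 20CBD replicates 2, 3 and 4. At the lower dose it was 2 without Control replicate 1 or 10CBD replicate 3, 3 without Control replicate 3 or 4 or 10CBD replicate 1 or 4, and 8 without 10CBD replicate 2. For the mean of both doses it was 8, 13 and 9 without Control replicates 1, 2 and 4, 9 without 10CBD replicate 3 and 11 without 20CBD replicate 4. In all of these fits 0 of 10 members were called by edgeR.

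The members do not vary independently, so their signs are not 10 separate results. Pearson r of log2 CPM over the 12 libraries ran from -0.65 (Wnk4 and Kcnj16) to 0.91 (Cul3 and Kcnj16) between pairs of members. In the direction of the differences, 10 of 10 members had a log2 fold change below 0 at 20CBD against Control, where 8146 of all genes (47.5%) did. The number of members below 0 there was 10 under RLE normalization and with mitochondrial genes removed. It was 8 with the mitochondrial share as a covariate and 7 without the 4 libraries under 10% mitochondrial counts. With 1 library left out it was 7 to 10, lowest without Control replicate 2. At 10CBD against Control 8 of 10 members lay below 0 against 8185 of all genes (47.7%). This number was 3 without the 4 libraries under 10% mitochondrial counts, where only 10CBD replicates 2 and 4 remained in that group. It was 6 with the adipocyte marker level, described further on, as a covariate, where the number at the higher dose was 7. At 20CBD against 10CBD 8 of 10 members lay below 0 against 8682 of all genes (50.6%), 9 without the 4 libraries and 7 with the mitochondrial share as a covariate. The median log2 fold change of the members was -0.16 at the lower dose, -0.18 at the higher dose and -0.11 between the doses, beside 0.012, 0.015 and -0.003 over all genes tested. The median of the members at the lower dose was -0.08 without 10CBD replicate 1, -0.24 without 10CBD replicate 2 and -0.09 without 10CBD replicate 3, and between the doses it was -0.06 without 10CBD replicate 4. Without the 4 libraries under 10% mitochondrial counts the medians of the members were 0.04, -0.10 and -0.19 at the lower dose, at the higher dose and between the doses. With the adipocyte marker level as a covariate they were -0.03, -0.16 and -0.10, and with the mitochondrial share as a covariate -0.09, -0.22 and -0.22.

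**Figure D1:**
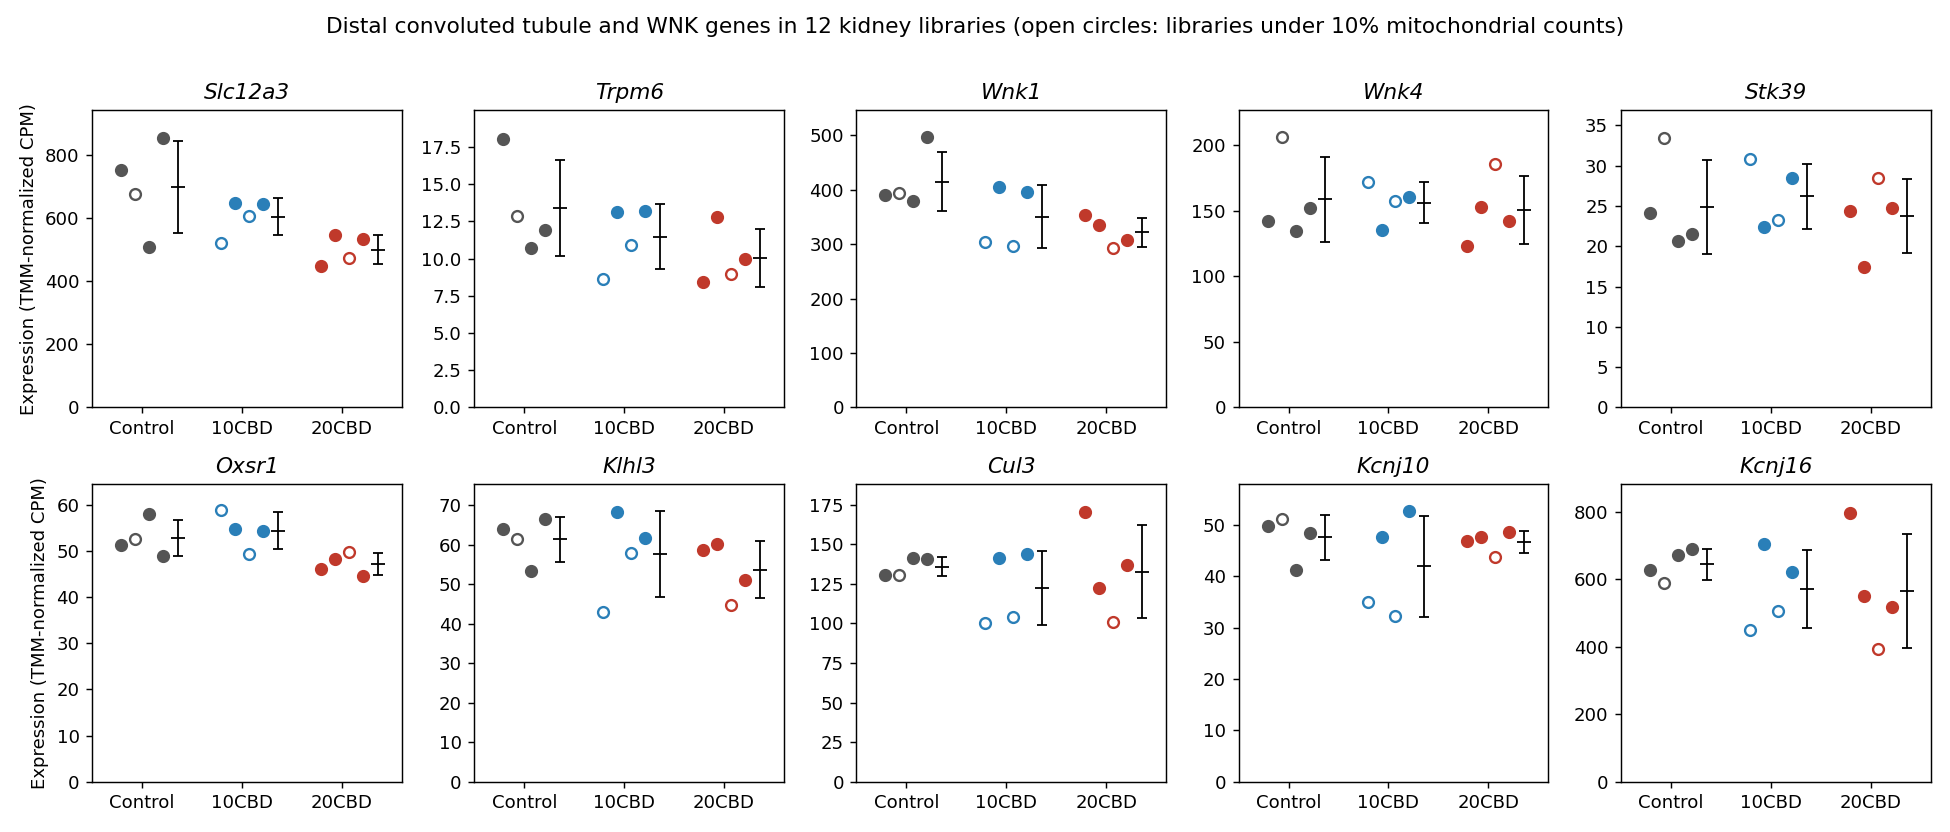
Expression of each of the 10 genes in TMM-normalized CPM (vertical axes, from 0), with 1 circle per library by group, open circles for the 4 libraries under 10% mitochondrial counts, and a black line with bars for the mean and SD of 4 mice. The 20CBD libraries of Wnk1 all lie below the 4 Control libraries, those of Slc12a3 lie below 3 of them, and the open circles are the lowest of their groups for Kcnj16.

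The cotransporter gene Slc12a3 (ENSMUSG00000031766) lies on the plus strand of chromosome 8 of GRCm39 from 95055829 to 95094170. Its expression was 753, 674.5, 507 and 852 CPM in Control replicates 1 to 4. It was 522, 646, 606 and 642 CPM in 10CBD replicates 1 to 4 and 448, 545, 472 and 532.5 CPM in 20CBD replicates 1 to 4. Control replicate 3 lay within the 20CBD range, and the other 3 Control libraries lay above all 20CBD libraries. The group means were 696 ± 146, 604 ± 57.6 and 499.5 ± 46.7 CPM (SD, n = 4 each). At 20CBD against Control the log2 fold change of Slc12a3 was -0.48 (SE 0.16, 95% interval -0.81 to -0.15), with an edgeR p of 0.00772 and an edgeR adjusted p of 0.391. The exact permutation test gave a two-sided p of 0.0857, where 4 mice against 4 have 70 arrangements and allow no p below 0.0286. Each member was tested in this way in 3 pairs of groups, and these exact p-values are not adjusted.

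The log2 fold change of Slc12a3 at 10CBD against Control was -0.21 (95% interval -0.54 to 0.13, exact permutation p = 0.314). It was -0.33 without Control replicate 3, -0.10 without Control replicate 4, and -0.13 without the 4 libraries under 10% mitochondrial counts. Between the doses it was -0.27 (95% interval -0.61 to 0.06, exact permutation p = 0.0857), where 10CBD replicate 1 lay within the 20CBD range. The mean of the 8 treated mice against the 4 Control mice gave -0.34 (95% interval -0.63 to -0.06), and from -0.47 to -0.08 over 21 other settings. With the mitochondrial share as a covariate, edgeR called Slc12a3 at the higher dose (log2 fold change -0.50, adjusted p = 0.0613), and in that fit 1385 of the 17163 genes tested were called. Over 22 other settings its adjusted p at the higher dose ran from 0.0613 to 0.998 (edgeR, DESeq2 or limma-voom). The RNA came from all cells of the tissue scrapes, so fewer cells of a type and less RNA per cell cannot be told apart for this gene or the others.

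Trpm6 (ENSMUSG00000024727), the magnesium channel gene, lies on the plus strand of chromosome 19 from 18727089 to 18869875. Its expression was 18.0, 12.9, 10.7 and 11.9 CPM in the Control libraries. It reached 8.62, 13.1, 10.9 and 13.2 CPM in the 10CBD libraries and 8.43, 12.8, 8.996 and 9.99 CPM in the 20CBD libraries. The Control value was highest in replicate 1, the other 3 Control libraries overlapped both treated groups, and the gene had 144 to 429 counts in a library. The log2 fold change of Trpm6 at 20CBD against Control was -0.41 (95% interval -0.83 to 0.00), with an edgeR adjusted p of 0.596 and an exact permutation p of 0.114. Without Control replicate 1 it was -0.23. It was -0.23 at 10CBD against Control and between the doses -0.19, with intervals that held 0. The value of Trpm6 at 10CBD against Control was -0.05 without Control replicate 1, -0.11 without 10CBD replicate 1 and -0.05 without the 4 libraries under 10% mitochondrial counts. That between the doses ranged from -0.32 to -0.11 with 1 library left out, lowest without 20CBD replicate 2 and highest without 10CBD replicate 2 or 4 or 20CBD replicate 1.

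Wnk1 (ENSMUSG00000045962) encodes the kinase at the head of the cascade and lies on the minus strand of chromosome 6 from 119900930 to 120015660. In the kidney it has a long form and a form without the kinase domain, made in the distal convoluted tubule from a start inside the gene. The annotation (GENCODE vM39) holds a transcript with such a start and a first exon of its own, Wnk1-201, at position 119958409, 57251 bases downstream of the first start and after 4 of the 28 exons of the canonical transcript. The counts were made per gene and do not separate the forms. The 250 bases before the first start of Wnk1 and before that of Wnk1-201 are printed because gene counts sum over the starts of the gene. Those of Slc12a3 are printed because this gene stood farthest below Control at the higher dose. Those of Kcnj16 are printed because they hold 2 matches of 1 motif. All are given 5′ to 3′ on the strand of the gene from GRCm39, in lower case with motif matches in capitals.
Slc12a3, chr8:95055579-95055828, plus strand: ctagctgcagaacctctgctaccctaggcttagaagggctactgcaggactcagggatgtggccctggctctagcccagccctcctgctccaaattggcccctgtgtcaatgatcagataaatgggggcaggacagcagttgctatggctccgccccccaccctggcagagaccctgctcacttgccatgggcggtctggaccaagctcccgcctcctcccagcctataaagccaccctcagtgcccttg
Wnk1 first start, chr6:120015661-120015910, minus strand: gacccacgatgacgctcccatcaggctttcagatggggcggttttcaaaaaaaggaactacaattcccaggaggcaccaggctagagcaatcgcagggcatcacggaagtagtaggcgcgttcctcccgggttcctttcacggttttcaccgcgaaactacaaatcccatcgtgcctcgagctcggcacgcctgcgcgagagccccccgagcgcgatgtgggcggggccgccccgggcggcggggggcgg
Wnk1 internal start, chr6:119958410-119958659, minus strand: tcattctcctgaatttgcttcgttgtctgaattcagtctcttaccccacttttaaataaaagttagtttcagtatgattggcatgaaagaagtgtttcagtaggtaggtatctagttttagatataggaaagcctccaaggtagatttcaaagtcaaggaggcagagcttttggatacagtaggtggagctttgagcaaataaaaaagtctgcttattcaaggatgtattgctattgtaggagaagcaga
Kcnj16, chr11:110858593-110858842, plus strand: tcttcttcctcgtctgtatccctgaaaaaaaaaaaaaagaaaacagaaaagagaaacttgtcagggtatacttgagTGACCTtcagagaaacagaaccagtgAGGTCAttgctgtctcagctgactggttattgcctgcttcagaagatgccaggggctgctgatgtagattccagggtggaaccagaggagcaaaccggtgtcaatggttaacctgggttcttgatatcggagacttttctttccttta

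These windows were searched on both strands for CACGTG (the E-box of clock factors), TTANGTAA (the D-box), AGGTCA (a core sequence of nuclear receptor sites) and TGTTCT (a core sequence of glucocorticoid and mineralocorticoid receptor sites). Of 21685 promoters of the same length, 6.28% held CACGTG, 2.08% TTANGTAA, 13.1% AGGTCA and 14.3% TGTTCT. The window of Kcnj16 held AGGTCA at 174 bases before its start on the opposite strand and at 148 bases before it on its own strand. Those of Cul3 and Kcnj10, not printed, held CACGTG at 248 bases and TGTTCT at 179 bases before the start. These letters were not in the windows of Slc12a3, of either Wnk1 start or of the other 5 members. GC content was 60.8% before the start of Slc12a3, and it was 63.6% before the first start of Wnk1 and 37.2% before the internal start.

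The expression of Wnk1 was 390, 394, 378 and 496 CPM in Control replicates 1 to 4. It was 303.5, 405, 297 and 396 CPM in 10CBD replicates 1 to 4 and 353, 334, 293 and 308 CPM in 20CBD replicates 1 to 4. All 20CBD libraries lay below all Control libraries, and Wnk1 was the 1 of 10 members for which this held, against 451 of all genes tested (2.63%). In the other 2 comparisons 0 of 10 members lay wholly below the reference group, against 281 of all genes (1.64%) at 10CBD against Control and 240 (1.40%) at 20CBD against 10CBD. The group means of Wnk1 were 415 ± 54.6, 350.3 ± 58.1 and 322 ± 26.7 CPM (SD, n = 4 each). Its log2 fold change at 20CBD against Control was -0.36 (95% interval -0.67 to -0.06), with an edgeR adjusted p of 0.503. The exact permutation p was 0.0286, the smallest that 4 mice against 4 can give.

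Control replicate 4 had the highest Wnk1 value, and without it the log2 fold change at the higher dose was -0.27 (edgeR adjusted p = 0.867). With the mitochondrial share as a covariate, edgeR called Wnk1 at the higher dose (-0.43, adjusted p = 0.0441). In that fit 1385 of the 17163 genes tested were called, against 52 in the main fit. Over 22 other settings the adjusted p of Wnk1 ran from 0.0441 to 0.998. At 10CBD against Control the log2 fold change of Wnk1 was -0.24 (95% interval -0.55 to 0.06). The low libraries of that group were 10CBD replicates 1 and 3, both under 10% mitochondrial counts. Without the 4 libraries under 10% this value was -0.08, and without Control replicate 4 it was -0.15. Between the doses it was -0.12 (95% interval -0.42 to 0.18), with -0.04 and -0.06 without 10CBD replicates 2 and 4, -0.19 without 10CBD replicate 3 and -0.27 without the 4 libraries. For the mean of both doses it was -0.30 (95% interval -0.56 to -0.04).

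Wnk4 (ENSMUSG00000035112), the WNK kinase gene most tied to the distal tubule, lies on the plus strand of chromosome 11 from 101151246 to 101168235. Its group means were 159 ± 32.4, 156 ± 15.5 and 151 ± 26.0 CPM (SD, n = 4 each), which differ by less than the spread between mice. Its highest values were 206 CPM in Control replicate 2, 172 CPM in 10CBD replicate 1 and 186 CPM in 20CBD replicate 3, all libraries under 10% mitochondrial counts. Its log2 fold change at 20CBD against Control was -0.07 (95% interval -0.41 to 0.26) and was 0.02 with the mitochondrial share as a covariate. At 10CBD against Control it was -0.02 and was 0.05 without the libraries under 10%, and at 20CBD against 10CBD it was -0.05 and was 0.10 with the covariate. Of its 4155 canonical exon bases, 138 (3.32%) overlap Coa3 and 306 (7.36%) overlap Gm11615, both on the opposite strand, and the strand setting of the counting is not stated.

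SPAK and OSR1 act below the WNK kinases. Stk39 (ENSMUSG00000027030), which encodes SPAK, lies on the minus strand of chromosome 2 from 68040789 to 68302723. It ranged from 20.7 to 33.4 CPM in Control, from 22.4 to 30.8 CPM in 10CBD and from 17.5 to 28.4 CPM in 20CBD, so the groups overlapped. Its log2 fold changes were 0.07, -0.07 and -0.14 at 10CBD against Control, 20CBD against Control and 20CBD against 10CBD, each with an interval that held 0. The value of Stk39 between the doses was -0.05 without 10CBD replicate 1, -0.21 without 10CBD replicate 2, -0.02 without 20CBD replicate 2 and -0.24 without 20CBD replicate 3. As for Wnk4, the highest Stk39 values stood in Control replicate 2, 10CBD replicate 1 and 20CBD replicate 3, and without the 4 libraries under 10% mitochondrial counts the value at 20CBD against Control was 0.01.

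Oxsr1 (ENSMUSG00000036737), which encodes OSR1, lies on the minus strand of chromosome 9 from 119067498 to 119151509. It had 51.4, 52.7, 58.1 and 49.1 CPM in Control, 59.0, 54.9, 49.3 and 54.4 CPM in 10CBD, and 46.2, 48.3, 49.8 and 44.6 CPM in 20CBD (replicates 1 to 4 each). The 20CBD libraries lay below those of both other groups except 20CBD replicate 3, which exceeded the lowest library of each. The log2 fold change of Oxsr1 was -0.16 at 20CBD against Control (95% interval -0.38 to 0.06) and -0.20 at 20CBD against 10CBD (95% interval -0.42 to 0.01), with an exact permutation p of 0.0571 in both. The lower dose gave 0.04 against Control (95% interval -0.18 to 0.26), with 0.09 without Control replicate 3 or 10CBD replicate 3, 0.01 without Control replicate 4 and 0.00 without 10CBD replicate 1.

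Of the ligase genes, Klhl3 (ENSMUSG00000014164), the adaptor that binds WNK kinases, lies on the minus strand of chromosome 13 from 58148042 to 58261469. Its group means were 61.4 ± 5.66, 57.7 ± 10.8 and 53.7 ± 7.23 CPM (SD, n = 4 each). Its log2 fold change at 20CBD against Control was -0.19 (95% interval -0.51 to 0.12, exact permutation p = 0.143), with overlapping groups, and -0.12 without 20CBD replicate 3. The lower dose gave -0.09, and 0.08 without the libraries under 10% mitochondrial counts. With 1 library left out this value of Klhl3 was -0.15 without Control replicate 3, -0.05 without Control replicate 4, 0.03 without 10CBD replicate 1 and -0.18 without 10CBD replicate 2. The lowest value of all 12 libraries was 42.9 CPM in 10CBD replicate 1.

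Cul3 (ENSMUSG00000004364), the scaffold of this and many other ubiquitin ligases, lies on the minus strand of chromosome 1 from 80242639 to 80318537. It stood at 131, 130.5, 141 and 141 CPM in Control. It stood at 100.5, 141, 104 and 144 CPM in 10CBD and at 170.5, 122.5, 101 and 137 CPM in 20CBD. The low values of the treated groups were those of 10CBD replicates 1 and 3 and 20CBD replicate 3, the treated libraries under 10% mitochondrial counts. The log2 fold changes of Cul3 were -0.15 at 10CBD against Control and -0.03 at 20CBD against Control, and 0.05 and 0.06 without the libraries under 10%. At 10CBD against Control the value of Cul3 was -0.07, -0.23, -0.08 and -0.24 without 10CBD replicates 1, 2, 3 and 4. Between the doses the value was 0.12, and -0.05 with the mitochondrial share as a covariate.

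Of the potassium channel genes, Kcnj16 (ENSMUSG00000051497) lies on the plus strand of chromosome 11 from 110858843 to 110927617, and its product joins that of Kcnj10 in one channel. Its expression was 629, 588, 673 and 690.4 CPM in Control replicates 1 to 4. It was 449, 704, 507.5 and 623 CPM in 10CBD replicates 1 to 4 and 797, 550.4, 394 and 518 CPM in 20CBD replicates 1 to 4. The 4 libraries under 10% mitochondrial counts were the lowest of their groups, and the highest value of all was that of 20CBD replicate 1, which had 20.6% mitochondrial counts. The log2 fold change of Kcnj16 was -0.18 at 10CBD against Control (95% interval -0.59 to 0.24) and -0.19 at 20CBD against Control (95% interval -0.61 to 0.22). Without the 4 libraries these values were 0.00 and -0.09. The value of Kcnj16 at 10CBD against Control was -0.08 without 10CBD replicate 1 and -0.30 without 10CBD replicate 2, and that at 20CBD against Control was -0.41 without 20CBD replicate 1 and -0.05 without 20CBD replicate 3.

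Kcnj10 (ENSMUSG00000044708) lies on the plus strand of chromosome 1 from 172168765 to 172201652, and 84 of its 5419 canonical exon bases (1.55%) overlap Gm57153 on the opposite strand. Its group means were 47.6 ± 4.38, 41.9 ± 9.78 and 46.7 ± 2.15 CPM (SD, n = 4 each). The 10CBD libraries split into 35.1 and 32.3 CPM in replicates 1 and 3, under 10% mitochondrial counts, and 47.7 and 52.6 CPM in replicates 2 and 4. In Control the library under 10% was instead the highest, at 51.1 CPM. The log2 fold change of Kcnj10 was -0.19 at 10CBD against Control, and 0.11 without the libraries under 10%. It was -0.03 at 20CBD against Control, and 0.04 without them, and 0.16 between the doses, and -0.07 without them. Without 10CBD replicates 1, 3 and 4 in turn, the value of Kcnj10 was -0.11, -0.08 and -0.32 at 10CBD against Control and 0.08, 0.05 and 0.29 between the doses.

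**Figure D2:**
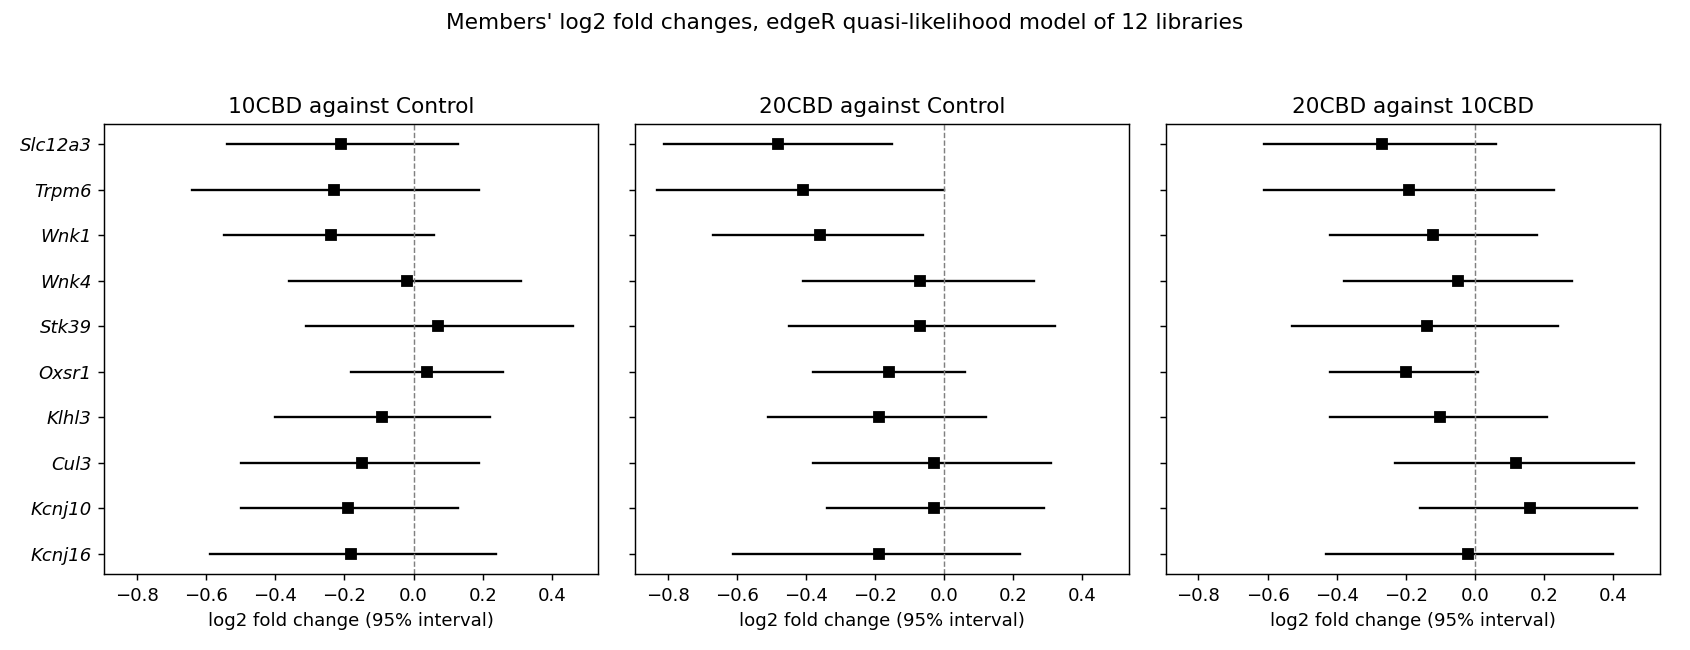
Log2 fold change of each gene (squares) with its 95% interval (lines) in the edgeR model of 12 libraries, for 10CBD against Control, 20CBD against Control and 20CBD against 10CBD, with a dashed line at 0. The intervals of Slc12a3 and Wnk1 at 20CBD against Control lie wholly below 0, from -0.81 to -0.15 and from -0.67 to -0.06, and 0 of 10 genes passed an adjusted p under 0.1 in any of these comparisons.

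Levels of the members were compared with each other as CPM per kilobase of the canonical transcript. On this scale Kcnj16 was highest in Control, at 177 ± 12.6 CPM per kb (SD, n = 4), followed by Slc12a3 at 150.5 ± 31.5 CPM per kb, and these neighbors did not differ beyond their spread. Wnk4 at 38.2 ± 7.81 and Wnk1 at 36.4 ± 4.80 CPM per kb came next and also overlapped, then Cul3 at 26.9 ± 1.22 CPM per kb. Oxsr1 stood at 11.4 ± 0.827 CPM per kb, and Kcnj10, Klhl3 and Stk39 lay between 6.98 and 8.79 CPM per kb, within each other's spread. Trpm6 was lowest, at 1.98 ± 0.477 CPM per kb. In 20CBD the order of the 10 means was the same as in Control, with Kcnj16 at 155 ± 46.3, Slc12a3 at 108 ± 10.1 and Trpm6 at 1.49 ± 0.288 CPM per kb. In 10CBD Klhl3 (8.07 ± 1.51 CPM per kb) and Kcnj10 (7.73 ± 1.81 CPM per kb) stood in the reverse order, within their spread. The length of Wnk1 is that of the long form, so its value per kb depends on how much of its RNA starts inside the gene. All these levels are of RNA from all cells of the scrapes. The order, and the gap between Kcnj16 and Kcnj10, need not be those within distal convoluted tubule cells.

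**Figure D3:**
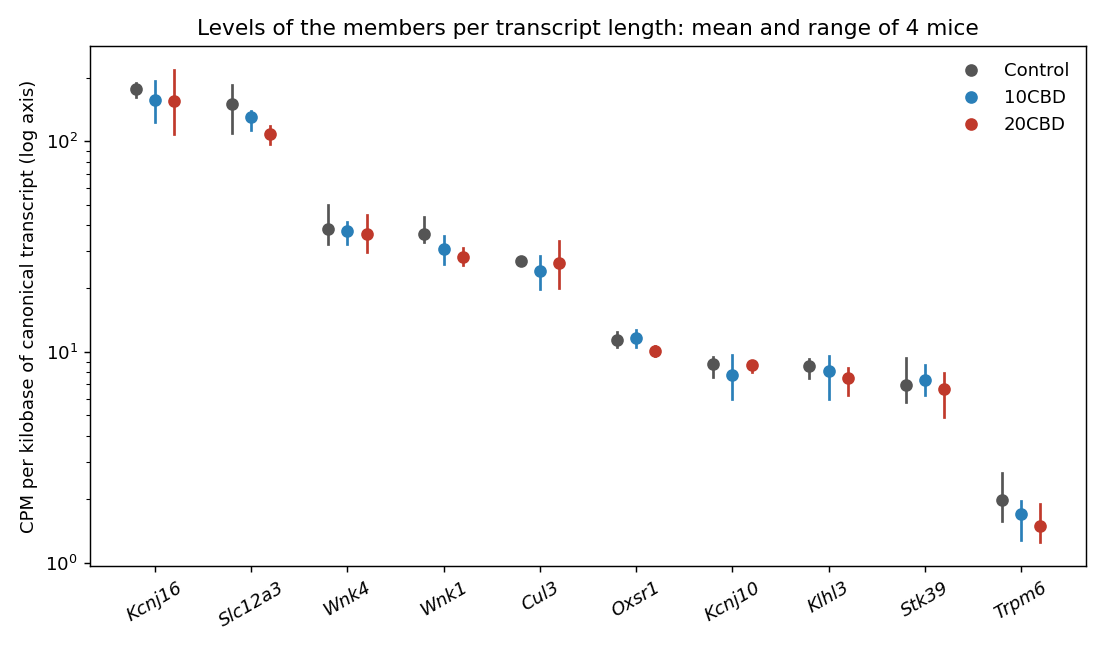
Mean CPM per kilobase of canonical transcript (circles, log axis) and the range of 4 mice (lines) for each gene in Control, 10CBD and 20CBD. Kcnj16 and Slc12a3 stand highest in each group, at 177 and 150.5 CPM per kb in Control, and Trpm6 lowest, at 1.98 CPM per kb.

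Of 19 other genes of the WNK pathway, all tested, edgeR called 0 in either direction in each comparison. At 20CBD against Control 1 of 19 had an unadjusted p under 0.05, and DESeq2 and limma-voom each called 0 with 1 at an unadjusted p under 0.05. Their median log2 fold change was -0.01 at 10CBD against Control, -0.03 at 20CBD against Control and -0.02 between the doses. The gene with a p under 0.05 at the higher dose was Ppp1r1a, which encodes an inhibitor of a protein phosphatase and is strongly expressed in the distal convoluted tubule. It had 142 ± 29.0, 170.0 ± 28.5 and 184 ± 24.7 CPM (SD, n = 4 each), a log2 fold change of 0.38 at the higher dose (95% interval 0.03 to 0.72). Wnk3 had the largest difference in that list, -0.43, but with 0.793 CPM in Control its interval ran from -1.36 to 0.50.

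The gene with the highest CPM in the pathway list, not scaled to length, was Slc12a1, the sodium, potassium and chloride cotransporter of the thick ascending limb and a target of the same kinases. It had 836 ± 222.5, 1105 ± 329.9 and 904 ± 145 CPM (SD, n = 4 each), and its log2 fold change at 20CBD against Control was 0.11 (95% interval -0.36 to 0.58). At 10CBD against Control 1 of 19 genes had an unadjusted p under 0.05 in edgeR, with 2 in DESeq2 and 1 in limma-voom. In edgeR this was Nr3c2, the mineralocorticoid receptor gene (log2 fold change -0.54, 95% interval -1.04 to -0.05), named after its value was seen. It had 6.23, 12.2, 6.78 and 8.69 CPM in 10CBD replicates 1 to 4, and the lowest value of each group stood in a library under 10% mitochondrial counts. At the higher dose its value was -0.22.

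Of 13 genes of magnesium handling besides Trpm6, 12 were tested and Kcna1 was not, for low counts. In edgeR 0 of 12 were called in any comparison and 0 of 12 had an unadjusted p under 0.05. DESeq2 and limma-voom called 0 as well, with 1 at an unadjusted p under 0.05 in DESeq2 between the doses. The median log2 fold change was -0.06 at 10CBD against Control and -0.05 at 20CBD against Control. Egfr, the receptor gene of epidermal growth factor, had the lowest value of the list at the higher dose, -0.31 (95% interval -0.76 to 0.15), with 56.4 ± 12.8, 45.9 ± 10.5 and 45.6 ± 12.3 CPM (SD, n = 4 each).

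Other markers of the distal convoluted tubule had a median near 0 at the higher dose. Of 8 such genes, all tested, edgeR called 0 in each comparison, with 1 of 8 at an unadjusted p under 0.05 at 20CBD against Control (Ppp1r1a), and DESeq2 and limma-voom also called 0 with 1. Their median log2 fold change there was -0.04, and 4 of 8 lay below 0. Their summed level was 3410, 4491, 3467 and 3220 CPM in Control, 4026, 3312, 3644 and 3718 CPM in 10CBD, and 3179, 3389, 4700 and 3697 CPM in 20CBD. Most of this sum, not scaled to length, came from Fxyd2, a regulator of ion transport also made in other segments, at 2551 ± 487 CPM in Control and 2697 ± 712 CPM in 20CBD. Fxyd2 had 2669 to 3729 CPM in the 4 libraries under 10% mitochondrial counts and 1951 to 2568 CPM in the other 8. The 3 highest sums, 4026, 4491 and 4700 CPM, also stood in libraries under 10%, while the fourth such library, 10CBD replicate 3, had 3644 CPM. The part of the mitochondrial share in these sums was not tested. Of the more selective markers, Pvalb had a log2 fold change of -0.28 at the higher dose (95% interval -1.03 to 0.46), Emx1 of 0.15 (95% interval -0.19 to 0.48) and Sall3 of -0.14 (95% interval -0.55 to 0.27). Cnnm2, a magnesium transport gene of the basolateral membrane, had a log2 fold change of -0.22 (95% interval -0.47 to 0.04, edgeR adjusted p = 0.675). Its 20CBD libraries all lay below Control (exact permutation p = 0.0286), as did those of 451 of all genes tested (2.63%).

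**Figure D4:**
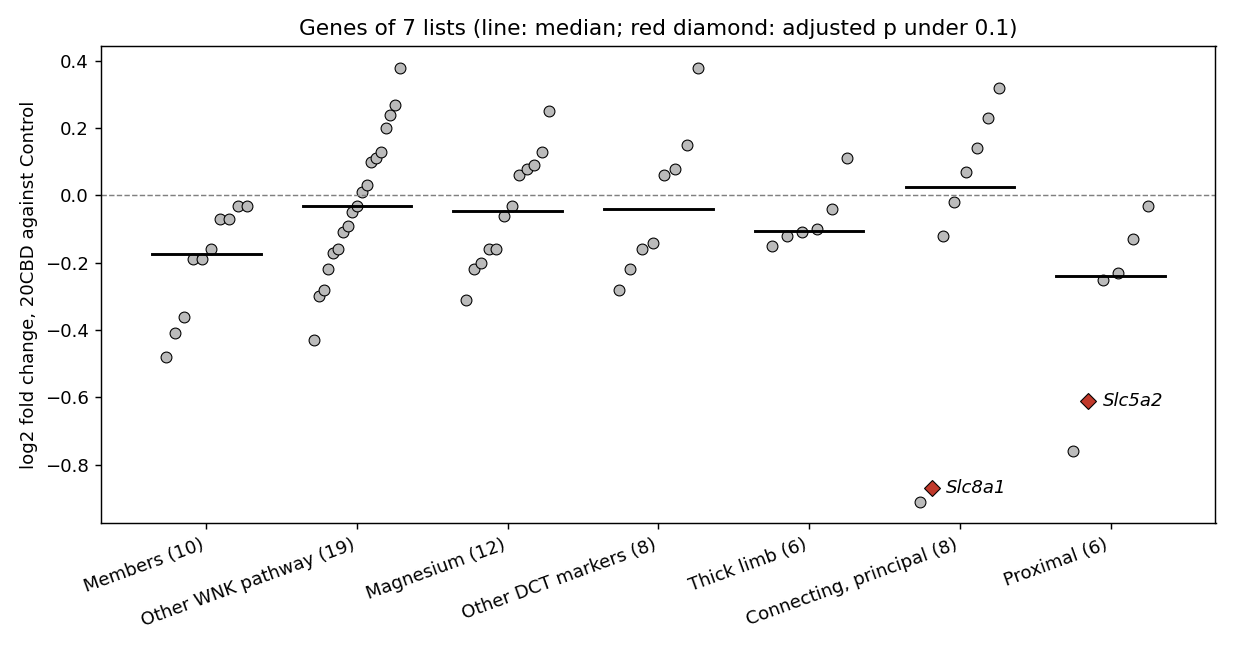
Log2 fold change at 20CBD against Control (vertical axis) of each tested gene in 7 lists, with a line at each median and red diamonds for genes past an adjusted p under 0.1 in edgeR. The 10 members have a median of -0.18, the other WNK pathway genes -0.03, magnesium handling genes -0.05 and other distal convoluted tubule markers -0.04, and the called genes are Slc8a1 and Slc5a2.

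Among markers of neighboring segments, Slc8a1 fell at the higher dose. It encodes the sodium and calcium exchanger of the late distal convoluted and connecting tubule. It had 91.0, 89.6, 74.2 and 93.3 CPM in Control. It had 48.8, 69.6, 50.5 and 66.8 CPM in 10CBD, and 47.0, 55.9, 39.4 and 48.1 CPM in 20CBD, with all libraries of both treated groups below Control. The edgeR log2 fold change of Slc8a1 was -0.87 (95% interval -1.18 to -0.56, adjusted p = 0.0340) at 20CBD, with 4 of 4 libraries below Control. It was -0.56 (adjusted p = 0.678) at 10CBD against Control. The call at 20CBD was lost without Control replicate 1, 2 or 4 (-0.85, -0.86 and -0.84, edgeR adjusted p = 0.110, 0.111 and 0.134) and with the adipocyte marker level as a covariate (-0.67, adjusted p = 0.998).

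Calb1, which encodes the calcium buffer calbindin of the same cells, had 179 ± 63.1, 128 ± 18.3 and 95.04 ± 12.2 CPM (SD, n = 4 each) and a log2 fold change of -0.91 at the higher dose (edgeR adjusted p = 0.168), with 97.9 CPM in the lowest Control and 111 CPM in the highest 20CBD library, and DESeq2 called it. Of the 8 markers of connecting tubule and principal cells, all tested, 1 was called by edgeR, with a median of 0.02 over the list. The 6 markers of the thick ascending limb had 0 calls by edgeR, DESeq2 or limma-voom at the higher dose, 0 at an unadjusted p under 0.05 and a median of -0.10. Of 6 proximal tubule markers 1 was called by edgeR, Slc5a2, the glucose cotransporter gene (log2 fold change -0.61, adjusted p = 0.0820, 4 of 4 libraries below Control), with 6 of 6 below 0 and a list median of -0.24. DESeq2 called 2 of the 6, Slc5a2 and Lrp2, the gene of the endocytic receptor megalin. The log2 fold change of Lrp2 was -0.76 (95% interval -1.14 to -0.37, edgeR adjusted p = 0.173), with 4 of 4 libraries below Control. The call of Slc5a2 was lost when any 1 Control or 20CBD library was left out, with values from -0.67 to -0.57, and with the adipocyte marker level as a covariate (-0.52).

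The remaining marker lists of kidney and adrenal cells had 0 calls by edgeR, DESeq2 or limma-voom at the higher dose. The 5 intercalated cell markers had a median of -0.29 with 2 of 5 at an unadjusted p under 0.05 in edgeR, and the 4 podocyte markers a median of 0.01 with 0 of 4. The 4 endothelial markers had a median of 0.10 with 1 of 4, the 5 immune cell markers a median of -0.08 with 0 of 5, and of 3 adrenal cortex markers the 1 tested had -0.17.

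The 4 adipocyte markers (Adipoq, Plin1, Cfd and Fabp4), all tested, had lower means in both treated groups, as Slc12a3 had. At 20CBD against Control edgeR called 0 of 4 with 4 of 4 at an unadjusted p under 0.05, limma-voom called 0 with 4, and DESeq2 called 1, Fabp4, with 4. Their median log2 fold change was -1.62 at 10CBD against Control and -2.84 at 20CBD against Control. Their summed level was 209, 257, 96.0 and 228.5 CPM in Control replicates 1 to 4. It was 135, 125, 67.8 and 89.6 CPM in 10CBD and 67.9, 114, 92.1 and 104 CPM in 20CBD. Fabp4, which endothelial cells also make, had the highest CPM, not scaled to length, at 109 CPM over the 12 libraries. Adipoq had 0 counts in 20CBD replicate 1, and Plin1 and Cfd had 0 counts in 20CBD replicate 3.

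With the log2 sum of the adipocyte markers as a covariate, an alternative chosen after seeing the data, the log2 fold changes at 20CBD against Control were -0.21 for Slc12a3, -0.27 for Wnk1 and -0.20 for Trpm6. In that fit edgeR called 0 of 10 members, 0 of 10 had an unadjusted p under 0.05, and 1 gene was called in all. The value of Slc12a3 at 10CBD against Control was 0.05 there. The marker sums of Control replicates 1, 2 and 4 (209 to 257 CPM) lay above those of all treated libraries (at most 135 CPM). Treatment and covariate can thus hardly be told apart in that fit. The RNA came from scrapes of kidney, the sources used here do not state how much fat they held, and the part of these markers in the results was not tested.

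**Figure D5:**
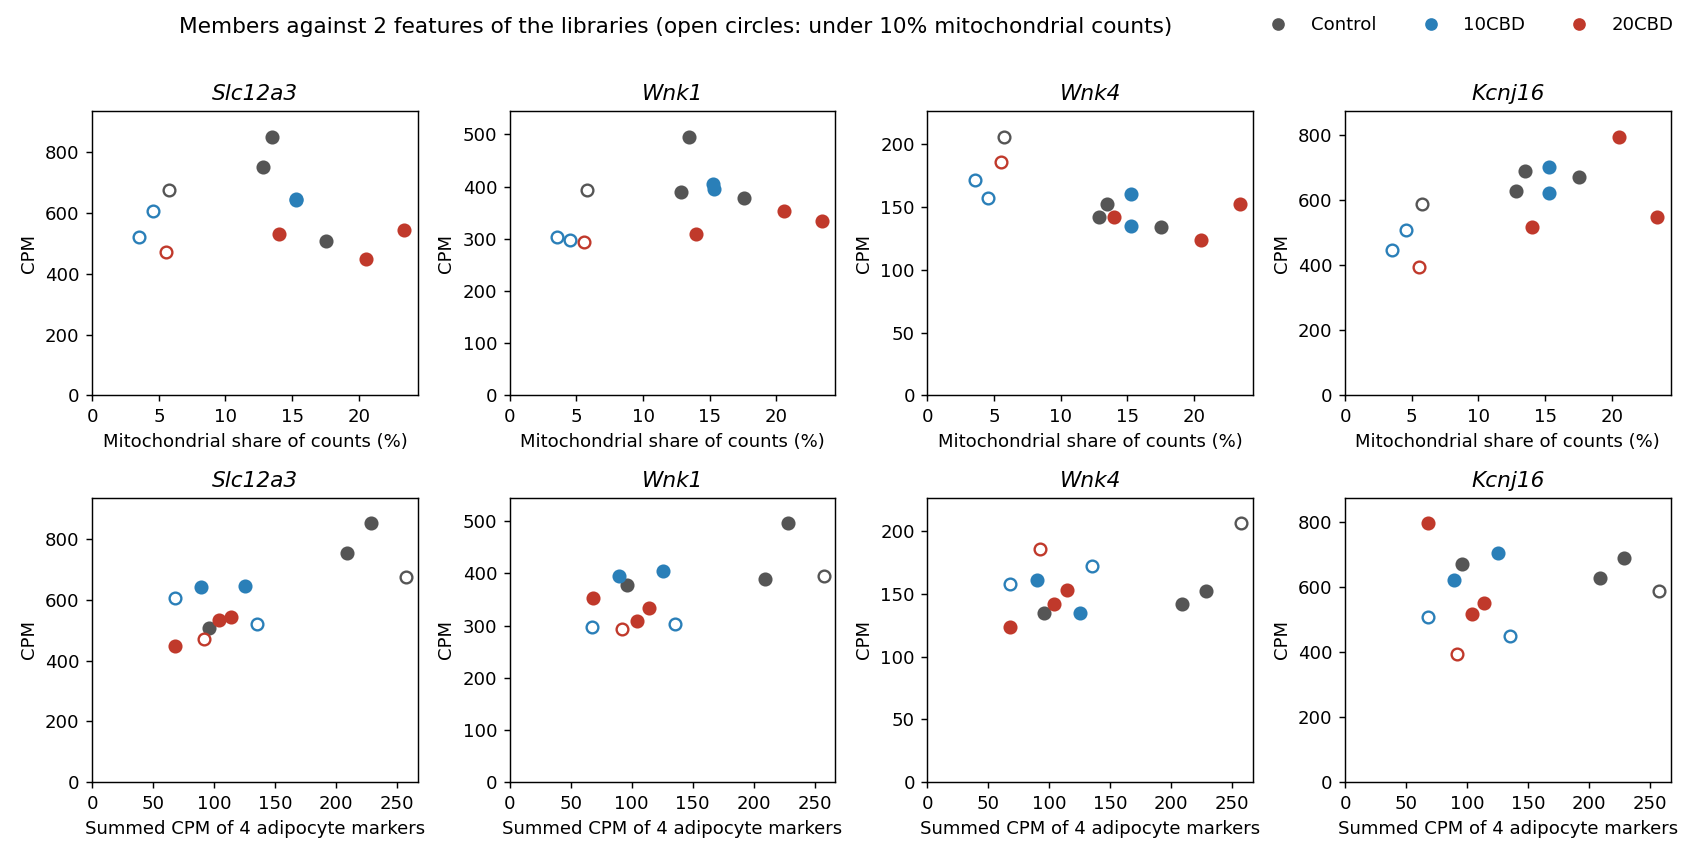
CPM of Slc12a3, Wnk1, Wnk4 and Kcnj16 (vertical axes, from 0) in each of the 12 libraries against the mitochondrial share of counts (upper panels, percent) and the summed CPM of 4 adipocyte markers (lower panels), colored by group, with open circles for the 4 libraries under 10% mitochondrial counts. Kcnj16 is lowest of each group in the open circles. The 3 highest Slc12a3 values, all of Control libraries, stand with marker sums of 209 to 257 CPM. The highest sum of 10CBD, 135 CPM, stands with the lowest Slc12a3 value of that group, 522 CPM. That of 20CBD, 114 CPM, stands with the highest of its group, 545 CPM.

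The genes whose log2 CPM was most like that of Slc12a3 over the 12 libraries, members left out, were Phyhip (Pearson r 0.935, Spearman rho 0.916), Kif13b (r 0.914, rho 0.944), Plin4 (r 0.899, rho 0.825), Herc2 (r 0.878, rho 0.867) and Polg (r 0.875, rho 0.867). Kif13b encodes a kinesin motor, Plin4 a protein of lipid droplets, Herc2 a ubiquitin ligase and Polg the DNA polymerase of mitochondria. Without Control replicates 1 and 4, the libraries farthest from the Slc12a3 median, r was 0.895 for Phyhip, 0.960 for Kif13b, 0.750 for Plin4, 0.860 for Herc2 and 0.873 for Polg. These genes were picked for their r among all genes tested, and Phyhip had only 2.25 CPM on average. After group means were subtracted the 5 most alike were Yif1b (r 0.907), Phyhip (r 0.882), Zfp940 (r 0.876), Yipf2 (r 0.871) and Plin4 (r 0.871), so that Phyhip and Plin4 stood among the 5 on both scales. Without Control replicates 3 and 4, the farthest libraries on this scale, r was 0.759 for Yif1b, 0.819 for Phyhip, 0.830 for Zfp940, 0.746 for Yipf2 and 0.682 for Plin4.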

How the data were processed

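The deposited files hold raw counts per gene from the authors, 1 file per library. The authors used Flexbar for trimming, STAR 2.7.5c for mapping to GRCm39 and htseq-count (HTSeq 1.99.2) for counting. Annotation release, strand setting and the use of molecular identifiers are not stated. Lines for reads on no feature (12.1% to 19.9% of uniquely mapped reads) or on more than 1 gene (4.72% to 5.29%) were left out. Identifiers were matched to GENCODE vM39 (99.0% of identifiers, 99.95% of counts). Genes were kept by filterByExpr, normalized by TMM and tested in 1 edgeR 4.0.16 quasi-likelihood model of all 12 libraries (R 4.3.3), with Benjamini-Hochberg adjustment over 17163 genes and calls at an adjusted p under 0.1. Log2 CPM used a prior count of 2. Exact permutation tests were two-sided on mean log2 CPM. All p-values are over mice. Intervals of log2 fold changes are at 95%. Alternatives were RLE normalization, DESeq2 1.42.0, no filter on low counts, limma-voom (limma 3.58.1), only the groups compared, a replicate block, mitochondrial share or adipocyte marker level as covariates, mitochondrial genes removed, the libraries under 10% mitochondrial counts left out, and each library left out. Exon overlaps were counted with genes of the count files. Named genes were all 10 members and, from the pathway, magnesium and distal convoluted tubule lists, genes past the threshold, the 2 with the largest absolute log2 fold change at 20CBD against Control and the most abundant. Some genes that this rule names in the magnesium list are not reported here. For Slc12a3 the 5 genes with the highest Pearson r were named. Genes named outside this rule (Nr3c2, Emx1, Sall3, Cnnm2, Slc8a1, Calb1, Slc5a2, Lrp2 and the adipocyte markers) were chosen after their values were seen. The members and lists were chosen with earlier results of these data known. Protein sequences were not used here.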

Additional observations from a re-analysis of the deposited data

Results flagged for a closer look

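Wnk1 in Control replicate 4 stood apart from the other Control libraries, at 496 CPM against 394 CPM in the nearest one, a gap of 0.865 of the range of that group. Without this library the log2 fold change of Wnk1 at 20CBD against Control was -0.27 (edgeR adjusted p = 0.867) in place of -0.36. Among the 33 groups of 4 libraries tested, chance gives such a gap in about 1 of 20.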

How the results depend on the processing

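Of 870 log2 fold changes of the 10 members under 10 other settings and 12 fits with 1 library left out, 23 and 18 had the opposite sign after rounding to 2 decimals, where 0.00 counts as neither sign. For 20CBD against Control, Slc12a3 (-0.61 to -0.21), Trpm6 (-0.55 to -0.20), Wnk1 (-0.43 to -0.27), Oxsr1 (-0.20 to -0.11), Klhl3 (-0.28 to -0.11) and Kcnj16 (-0.41 to -0.05) were below 0 in all 22 of these. The members called numbered 0 in each setting except the mitochondrial share as a covariate. There 2 of 10 members (Slc12a3 and Wnk1) and 1385 of the 17163 genes tested were called at 20CBD against Control. The cause of that change was not tested, and neither was the cause of the following changes of sign. The fit without the libraries under 10% mitochondrial counts kept only replicates 2 and 4 of 10CBD. Its log2 fold changes were 0.05 for Wnk4, 0.08 for Klhl3, 0.05 for Cul3 and 0.11 for Kcnj10 at 10CBD against Control. They were 0.01 for Stk39, 0.06 for Cul3 and 0.04 for Kcnj10 at 20CBD against Control, -0.07 for Kcnj10 between the doses, and 0.01 for Wnk4, 0.05 for Cul3 and 0.07 for Kcnj10 for the mean of both doses. With the mitochondrial share as a covariate they were 0.02 for Wnk4 and 0.04 for Stk39 at 20CBD against Control, and 0.10 for Wnk4, 0.03 for Stk39 and -0.05 for Cul3 between the doses. With the adipocyte marker level as a covariate, chosen after seeing the data, they were 0.05 for Slc12a3 and 0.18 for Wnk4 at 10CBD against Control, 0.15 for Wnk4, 0.13 for Stk39 and 0.15 for Kcnj10 at 20CBD against Control, and 0.16 for Wnk4 and 0.06 for Kcnj10 for the mean of both doses. With 1 library left out, the range at 10CBD against Control was -0.10 to 0.13 for Wnk4, -0.02 to 0.24 for Stk39 and -0.18 to 0.03 for Klhl3. At 20CBD against Control it was -0.19 to 0.08 for Wnk4, -0.17 to 0.10 for Stk39, -0.09 to 0.01 for Kcnj10 and -0.18 to 0.08 for Cul3. Between the doses it was -0.23 to 0.12 for Kcnj16, -0.16 to 0.04 for Wnk4 and -0.02 to 0.23 for Cul3, and for the mean of both doses -0.12 to 0.10 for Wnk4. Stk39, at 0.00 for the mean of both doses, ranged from -0.08 to 0.17 there. Genes called in all at 20CBD against Control numbered 52 in edgeR, 51 with RLE normalization, 48 in limma-voom, 170 in DESeq2, 416 without a filter on low counts and 107 without the libraries under 10% mitochondrial counts. With the replicate number as a block there were 27. Libraries of the same number had r of -0.33 to 0.32 over genes, which cannot show whether the numbers pair mice. In that fit Slc5a2 was not called (edgeR adjusted p = 0.206). Between the doses 0 genes were called in edgeR, 13 in DESeq2, 256 without the filter and 62 with the mitochondrial share as a covariate. For the mean of both doses 24 were called in edgeR, 116 in DESeq2 and 393 without the filter. That number was 276 with the mitochondrial share as a covariate and 67 without the libraries under 10% mitochondrial counts. At 10CBD against Control 5 genes were called in edgeR, 33 in DESeq2 and 331 without the filter. That number was 15 with the mitochondrial share and 1 with the adipocyte marker level as a covariate. It was 26 without the libraries under 10% mitochondrial counts. Depth limits genes with few counts, such as Wnk3 at 0.793 CPM in Control.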
